A study of Homo sapiens with 12 samples.

Results

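The genes described here encode the 8 subunits of the cytosolic chaperonin CCT, also called TRiC: TCP1, CCT2, CCT3, CCT4, CCT5, CCT6A, CCT7 and CCT8. They were taken by symbol from the GENCODE annotation of the hg38 genome, and they are 8 of its 20033 protein-coding genes. HSF1 and histone H3 lysine 27 acetylation (H3K27ac) were mapped by CUT&Tag, in which an antibody guides a transposase that cuts and tags the DNA beside its target. Both libraries came from Huh7, an established human hepatocellular carcinoma line, in cells that were neither transfected nor described as heat shocked, with 1 library for each antibody. A gene was counted as carrying a peak when the summit, the highest point of the peak, lay within 1 kb of any annotated transcript start. There were no replicate libraries, so the values are given with counting error and without tests.

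CCT is a ring-shaped chaperonin that encloses newly made proteins and lets them fold, and actin and tubulin are its best-known clients. Its subunits are related but different proteins, each with a fixed place in the ring, so the ring needs the products of all their separate genes. HSF1 is the main transcription factor of the heat shock response and binds heat shock elements, alternating inverted repeats of GAA and TTC, while the CCAAT box in promoters is the classical site of the factor NF-Y. H3K27ac marks active promoters and enhancers.

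Promoter sequences are shown so that the letters behind the motif counts can be read. All are read on hg38 in the direction of the CCT gene, and capitals mark a CCAAT box (ATTGG where the box is on the opposite strand) or a heat shock element. For the 6 genes with an HSF1 peak and for CCT4, the stretch is free of annotated exons and lies upstream of a CCT start.
TCP1, chr6:159789704-159789811, minus strand: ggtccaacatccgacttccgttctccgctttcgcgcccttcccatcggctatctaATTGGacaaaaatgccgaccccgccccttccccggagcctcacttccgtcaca
CCT2, chr12:69585226-69585425, plus strand: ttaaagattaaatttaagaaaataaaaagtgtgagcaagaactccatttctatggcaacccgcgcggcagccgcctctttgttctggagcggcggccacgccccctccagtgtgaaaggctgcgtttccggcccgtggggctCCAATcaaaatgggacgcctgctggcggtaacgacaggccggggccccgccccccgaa
CCT3, chr1:156338312-156338502, minus strand: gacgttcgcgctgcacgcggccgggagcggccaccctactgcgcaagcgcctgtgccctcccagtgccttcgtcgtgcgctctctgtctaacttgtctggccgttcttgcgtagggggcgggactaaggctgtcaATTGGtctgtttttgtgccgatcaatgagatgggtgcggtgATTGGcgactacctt
CCT6A, chr7:56051605-56051684, plus strand: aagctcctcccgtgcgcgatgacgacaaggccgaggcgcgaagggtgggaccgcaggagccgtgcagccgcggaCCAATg
CCT7, chr2:73233240-73233419, plus strand: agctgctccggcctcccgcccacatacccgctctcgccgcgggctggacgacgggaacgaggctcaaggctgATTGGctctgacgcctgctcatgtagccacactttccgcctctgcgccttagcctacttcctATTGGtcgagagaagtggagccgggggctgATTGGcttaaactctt
CCT8, chr21:29073798-29073997, minus strand: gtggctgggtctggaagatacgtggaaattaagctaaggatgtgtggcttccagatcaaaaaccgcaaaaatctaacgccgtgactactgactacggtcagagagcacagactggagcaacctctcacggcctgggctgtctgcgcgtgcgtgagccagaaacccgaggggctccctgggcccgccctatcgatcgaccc
CCT4, chr2:61888672-61888723, minus strand: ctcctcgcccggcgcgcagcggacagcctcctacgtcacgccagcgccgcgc
Of the 6 stretches of genes with a peak, 5 hold at least 1 CCAAT box, 2 in CCT3 and 3 in CCT7, and that of CCT8 holds none, since its box lies nearer to the start, in an exon. The CCT4 stretch holds none either, but at 52 bases it is shorter than the others. None of the 7 holds a heat shock element, although in CCT3 and CCT6A one with 1 mismatch lies just downstream of the stretch. A second site of CCT4, chosen because it holds the heat shock element, lies inside the first exon, in the 5′ UTR.
CCT4, chr2:61888595-61888624, minus strand: gccgctTTCTGGAAGGTTCGTGAAggcagt
Its element runs without a mismatch over 18 bp, 2 overlapping exact elements that together make 4 alternating units.

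**Figure D1:**
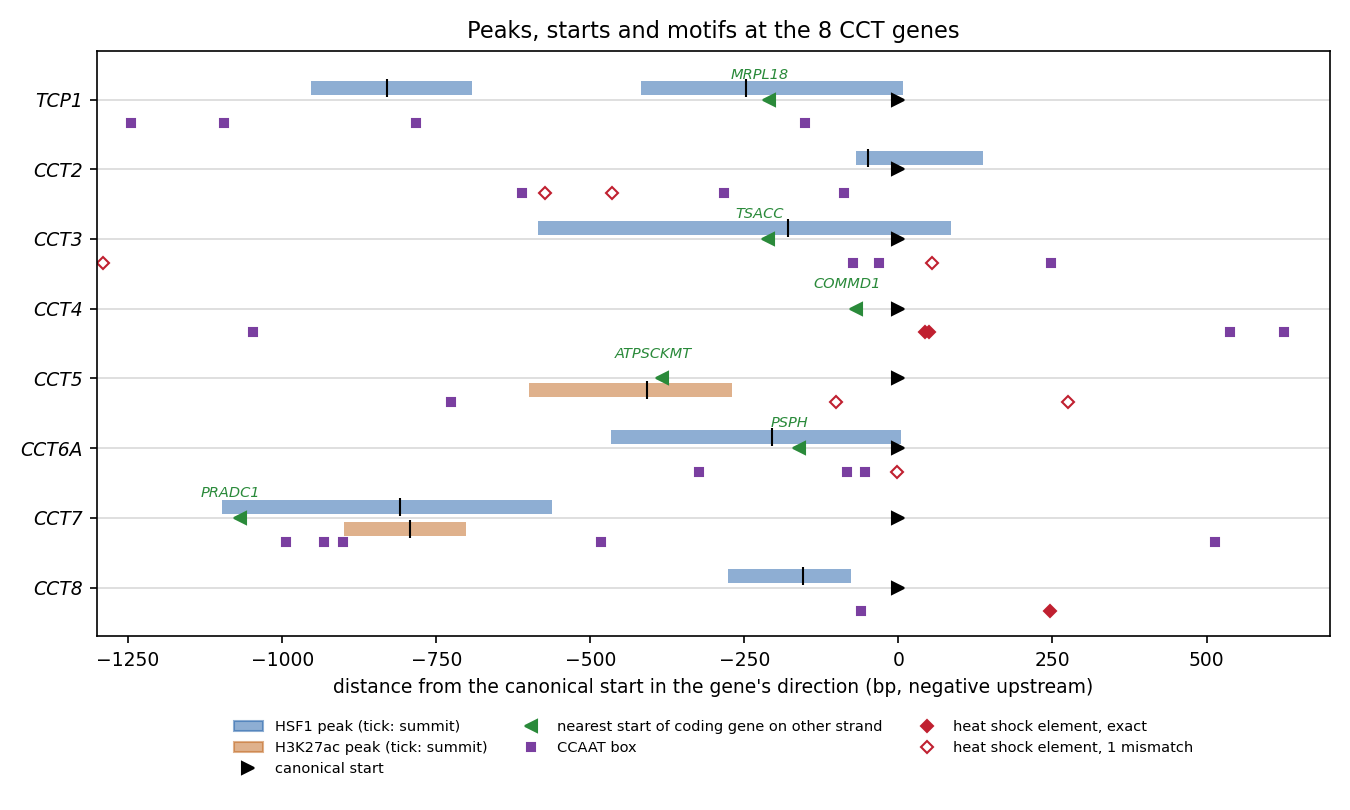
Peaks, starts and motifs at the 8 CCT genes, plotted by distance in bp from the start of the canonical transcript in the direction of the gene (negative upstream); bars are peaks, ticks are summits, and triangles are starts. The 7 HSF1 summits all lie upstream of the canonical start. CCT4 and CCT5 have no HSF1 bar. Heat shock elements are drawn at CCT4 and CCT5 and also at CCT2, CCT3, CCT6A and CCT8, which have one.

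HSF1 peaks lay at the starts of 6 of the 8 CCT genes (75.0%): TCP1, CCT2, CCT3, CCT6A, CCT7 and CCT8. Among all protein-coding genes, 5098 of 20033 (25.4%, 95% exact binomial interval 24.8 to 26.1) carried an HSF1 peak by the same rule. CCT4 and CCT5 carried none. H3K27ac peaks lay at the starts of 2 CCT genes, CCT5 and CCT7, against 3.31% of protein-coding genes, and CCT7 alone had both, against 2.57%. With only peaks of a -log10 q of at least 5, CCT5 was the single CCT gene with an H3K27ac peak, and none had both. The H3K27ac list was short, with 1299 peaks on the autosomes, X and Y against 7147 for HSF1, and 896393 of 15737890 tags (5.7%) were left after duplicates were removed against 2712212 of 3604911 (75.2%), so a gene without an H3K27ac peak cannot be read as lacking the mark.

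Because a summit near any start counts, genes with many annotated starts have more chances to be called. The CCT genes had 4 to 15 distinct starts with a median of 12, against a median of 5 for protein-coding genes (quartiles 2 and 10). Of the 12965 protein-coding genes with at least 4 starts, as many as the CCT gene with the fewest, 32.3% carried an HSF1 peak. That cutoff was set by CCT4 alone, and every other CCT gene had at least 9 starts. The share is therefore not matched to most of the family. With only the canonical start counted, 6 CCT genes still carried one, against 22.8% of protein-coding genes.

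CCT3, which encodes the gamma subunit, carried the tallest HSF1 peak of the family. The pileup, the number of extended sequence tags over the summit, was 39 (exact Poisson 95% interval 27.7 to 53.3), 13.0-fold over the local background, and its fold enrichment was higher than that of 98.9% of all HSF1 peaks. The peak spanned chr1:156338206-156338877 with its summit at 156338471, 179 bp upstream of the canonical start and 160 bp from the nearest CCT3 start. Nearest to it in height were 2 promoter peaks, both at 13.0-fold with a pileup of 39. One is shared by CREM, a cAMP-responsive transcription factor, and CUL2, a scaffold of ubiquitin ligases, and the other lies at LARP1, a regulator of mRNAs for the translation machinery. With only the outermost annotated start of each gene counted, CCT3 lost its peak and 5 CCT genes kept one.

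TCP1, CCT6A and CCT7 carried peaks of middle height. TCP1, which encodes the alpha subunit, had a peak at chr6:159789595-159790019 with a pileup of 25 (16.2 to 36.9) and a fold enrichment of 10.1, higher than 91.4% of HSF1 peaks. CCT6A, the zeta subunit, had a peak at chr7:56051298-56051769 with the same pileup and a fold enrichment of 9.22, at percentile 85.9. CCT7, the eta subunit, had a higher pileup of 28 (18.6 to 40.5) at chr2:73233210-73233746 but a lower fold enrichment of 8.68, at percentile 80.7. The 3 intervals overlapped one another and that of CCT3, so the order among these 4 genes is not fixed by the counts. TCP1 was the only CCT gene with a second HSF1 peak near its starts, at chr6:159790294-159790555, with a pileup of 13 (6.92 to 22.2), a fold enrichment of 5.43 and percentile 13.5.

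Among the tallest peaks of each gene, those of CCT8 and CCT2 were the smallest. CCT8, the theta subunit, had a pileup of 15 (8.4 to 24.7) and a fold enrichment of 6.06 at chr21:29073725-29073924, at percentile 28.5. CCT2, the beta subunit, had a pileup of 10 (4.8 to 18.4) and a fold enrichment of 6.32 at chr12:69585390-69585596, at percentile 35.3. Both were 200 to 207 bp long, below the median HSF1 peak length of 346 bp, and both were under the median fold enrichment of 6.85. The interval of CCT3 did not overlap those of CCT8 and CCT2, and that of CCT7 did not overlap that of CCT2. The lowest pileup in the HSF1 list was 4.

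Taking the tallest peak of each gene, the 6 CCT genes had a median pileup of 25 and a median fold enrichment of 8.95. HSF1 peaks at protein-coding starts had medians of 14 (quartiles 10 and 19) and 7.14 (quartiles 6.16 and 8.62). The median percentile of the CCT peaks in fold enrichment was 83.3 among all HSF1 peaks and 79.3 among the 4424 at protein-coding starts. The family spread over most of the range, from CCT8 at percentile 28.5 to CCT3 at 98.9.

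**Figure D2:**
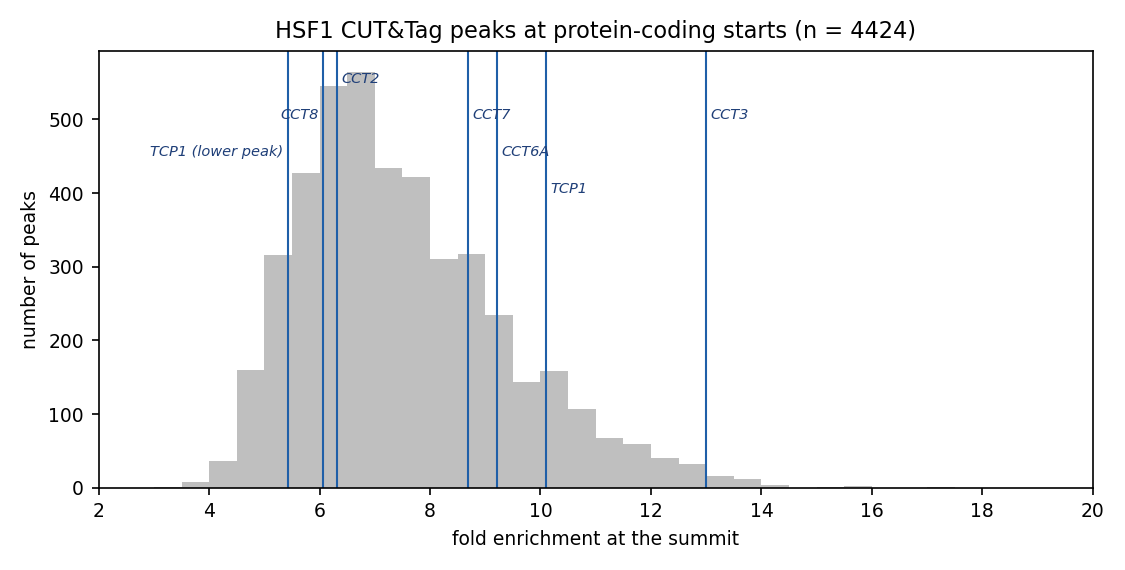
Number of HSF1 CUT&Tag peaks at protein-coding starts by fold enrichment at the summit (grey bars), with the 7 peaks at CCT starts as vertical lines. CCT3 at 13.0 lies in the upper tail, and CCT2, CCT8 and the lower TCP1 peak lie below the median of 7.14.

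The tallest summit of each gene lay close to a start, and mostly upstream of it. Of the 7 HSF1 summits at CCT starts, 6 lay upstream of the nearest start of the CCT gene and all 7 upstream of the canonical one. CCT8 was closest, 5 bp from a start, followed by CCT2 at 16 bp, CCT7 at 40 bp on the downstream side, CCT6A at 125 bp, TCP1 at 147 bp and CCT3 at 160 bp. The lower TCP1 summit lay further off, 729 bp upstream of the nearest TCP1 start. The median over the tallest peak of each gene was 82.5 bp, beside 77.5 bp for all HSF1 summits at protein-coding starts (quartiles 27 and 180). For CCT7 the start was an alternative one, since the summit lay 809 bp upstream of the canonical start, in a noncoding exon of 4 CCT7 transcripts.

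Several CCT genes share their upstream region with a gene on the other strand, and there the peak cannot be given to 1 gene. A coding gene on the other strand had an annotated start within 1 kb upstream of the canonical start in 5 of the 8 CCT genes, against 12.6% of protein-coding genes: TCP1, CCT3, CCT4, CCT5 and CCT6A. Of these 5, 3 carried an HSF1 peak, and all 3 CCT genes without such a partner did. Across protein-coding genes the share with an HSF1 peak was 49.2% with a divergent coding partner and 22.0% without.

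In the 3 divergent genes with an HSF1 peak, the tallest summit was nearer to an annotated start of the neighbour than to any CCT start. At TCP1 it lay 36 bp from an alternative start of MRPL18, which encodes a mitochondrial ribosomal protein. The second TCP1 peak, although counted at a TCP1 start, lay 35 bp from the canonical MRPL18 start. At CCT3 it lay 32 bp from a start of TSACC, which encodes a cofactor of testis-specific kinases, and at CCT6A 44 bp from a start of PSPH, the last enzyme of serine synthesis. At CCT2, CCT7 and CCT8 the nearest start was that of the CCT gene. Among the 5098 protein-coding genes with an HSF1 peak, another gene's start was the nearer one in 26.0%. That share covers genes with and without a divergent partner, and the share for divergent genes alone was not computed. CCT7 also has a coding neighbour, PRADC1, whose nearest start is 181 bp from an alternative CCT7 start, and PRADC1 was counted with both the HSF1 and the H3K27ac peak. With canonical starts only, the tallest summits of CCT3, CCT6A and CCT7 were nearer to the neighbour. The tallest TCP1 summit, at 159789850, was then nearer to TCP1, 248 bp away, with the canonical MRPL18 start at 159790467.

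CCT4 and CCT5 also have divergent neighbours. CCT4, the delta subunit, lies 53 bp from a start of COMMD1, which takes part in copper balance and endosomal sorting, and neither gene had a peak in either list. That COMMD1 start is an alternative one, since the canonical COMMD1 start lies 17018 bp from that of CCT4. The nearest HSF1 summit was 34.8 kb away from the CCT4 start and the nearest H3K27ac summit 418 kb. CCT5, the epsilon subunit, lies 32 bp from a start of ATPSCKMT, a lysine methyltransferase of a subunit of the mitochondrial ATP synthase, and its nearest HSF1 summit was 103 kb away. The other neighbours on the opposite strand were noncoding: MIR3913-1, 603 bp from a CCT2 start, and the lncRNA gene ENSG00000286018, 22 bp from an internal CCT8 start. Peaks were assigned to protein-coding starts only, so neither was called as with or without one. The HSF1 summit of CCT2, at 69585410, also lay within 1 kb of the MIR3913-1 start at 69584823.

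The H3K27ac peak at CCT5 lay at chr5:10249680-10250010 with a pileup of 12 (6.2 to 21.0) and a fold enrichment of 7.47, higher than 83.8% of H3K27ac peaks. Its summit was 57 bp upstream of the nearest CCT5 start and 13 bp from a start of ATPSCKMT, inside an ATPSCKMT exon, and no HSF1 peak overlapped it. At CCT7 the H3K27ac peak at chr2:73233408-73233607 had a pileup of 8 (3.45 to 15.8) and a fold enrichment of 5.92, at percentile 47.1. It overlapped the HSF1 peak, with the summits at 73233515 and 73233499. The H3K27ac intervals of CCT5 and CCT7 overlapped, and the median pileup of the H3K27ac list was 8. For the other CCT genes, the nearest H3K27ac summit was 55.9 kb away at TCP1, 72.5 kb at CCT2, 649 kb at CCT3, 1150 kb at CCT6A and 2710 kb at CCT8.

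CCAAT boxes were frequent at the CCT starts. Between 250 bp upstream and 50 bp downstream of the canonical start, 5 of the 8 CCT genes held CCAAT on either strand, against 36.1% of protein-coding genes. All 5 of them (TCP1, CCT2, CCT3, CCT6A and CCT8) carried an HSF1 peak. The share of CCAAT-holding protein-coding genes with an HSF1 peak was not computed, so this count has no background, and a link was not tested. CCT7, the sixth, has its boxes further upstream, at 996, 934 and 904 bp from the canonical start, beside the alternative start that carries its peak. CCT4 and CCT5, without an HSF1 peak, had no box in that window but had some further away, CCT5 at 728 bp upstream and CCT4 at 1049 bp upstream and at 536 and 623 bp downstream. In gene direction the first base of the boxes lay 154 bp upstream of the canonical start in TCP1, 91 bp in CCT2, 75 and 34 bp in CCT3, 86 and 56 bp in CCT6A, and 63 bp in CCT8.

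Measured from the summits, CCAAT lay within 100 bp in 5 of the 7 HSF1 peaks at CCT starts, against 35.6% of HSF1 peaks at protein-coding starts. These 5 were both TCP1 peaks, the lower of them beside the canonical MRPL18 start, and those of CCT2, CCT7 and CCT8. They were not central. The middle of the nearest box was 96 bp from the summit at the taller TCP1 peak, 93 bp at CCT7 and CCT8, 48 bp at the lower TCP1 peak and 40 bp at CCT2. Within 50 bp of the summit the count was 2 of 7, against 24.6%. A longer spelling within 100 bp also lowered it: ACCAAT or GCCAAT gave 2 of 7, against 27.1%, and AGCCAAT 1 of 7, against 10.4%. CCT3 and CCT6A had no box within 100 bp of the summit, but their peaks held 2 and 3 boxes. The boxes of CCT2 and CCT8 lay outside the called peak. Counted anywhere in the peak, 5 of 7 CCT peaks held one, against 47.6%.

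Heat shock elements were searched as GAANNTTCNNGAA or TTCNNGAANNTTC with at most 1 mismatch in the 9 fixed bases. None of the 7 HSF1 peaks at CCT starts had one within 100 bp of the summit, nor within 200 bp. HSF1 peaks at protein-coding starts had one within 100 bp in 2.15%, so that a count of 0 in 7 peaks is near this background. With 2 exact units in place of 3, 1 of the 7 peaks, the taller TCP1 peak, held a match, against 4.79%.

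Most elements found around the CCT starts lay outside called HSF1 peaks, which cover only part of the sequence searched. In the window around the canonical start, 3 of the 8 CCT genes held one (CCT4, CCT5 and CCT6A), against 4.65% of protein-coding genes. Of these 3, 1, CCT6A, carried an HSF1 peak. The share of protein-coding genes with an element that carry an HSF1 peak was not computed, so this count has no background. The CCT6A element lay at the edge of that peak, from 9 bp upstream to 3 bp downstream of the canonical start, and held 1 mismatch. CCT4 alone held an exact element, against 0.369% of protein-coding genes. Its run of 4 units covers chr2:61888601-61888618, from 38 to 55 bp downstream of the canonical start, and no HSF1 peak was called within 34.8 kb. CCT8 held an exact element 240 bp downstream of its canonical start, in an intron of the canonical transcript and outside its peak, and the CCT3 peak held an element with 1 mismatch 49 bp downstream of the start.

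Base composition and other motifs were closer to the background. The GC content of the start windows ranged from 50.8% in CCT5 to 72.4% in CCT6A with a median of 62.3%, beside 63.5% for protein-coding genes (quartiles 54.8 and 71.1). The GC box GGGCGG, the site of SP1, lay in the start window of 5 CCT genes, against 61.4% of protein-coding genes, and within 100 bp of 5 of the 7 summits, against 65.9%. The E-box CACGTG, the site of MYC and related factors, lay in the start window of none of the 8, against 8.77%. All motifs were searched on both strands, and a match is a run of letters, not a measured site.

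Outside the starts, 2 more HSF1 peaks lay in or within 10 kb of a CCT gene, and both were near the start of another gene. One lay 12668 bp downstream of the CCT6A start and 101 bp from a start of SUMF2, with a pileup of 12 (6.2 to 21.0) and a fold enrichment of 6.5. The other lay 3369 bp upstream of the CCT8 start and 204 bp from a start of MAP3K7CL, with a pileup of 18 (10.7 to 28.4) and a fold enrichment of 6.99. The interval of the second overlapped that of the peak at the CCT8 start.

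The partners of CCT in folding were counted by the same rule for comparison. Among all protein-coding genes the shares were 25.4% for HSF1 and 3.31% for H3K27ac, and no list was tested against them. Prefoldin, which hands unfolded actin and tubulin to CCT, had no HSF1 or H3K27ac peak at any of its 6 genes. Of the 4 phosducin-like cofactors of CCT, PDCL3 with 8.56-fold and TXNDC9 with 6.31-fold carried an HSF1 peak. PDCL3 also carried an H3K27ac peak, with 5.65-fold. Among 5 CCT paralogs and chaperonin-like BBS genes, 4 carried an HSF1 peak: BBS12 with 10.7-fold and BBS10 with 8.72-fold, MKKS with 6.09-fold, all parts of the complex that assembles the BBSome, and CCT6B, the testis form of CCT6A, with 4.23-fold and a pileup of 5 (1.62 to 11.7). CCT6B also carried an H3K27ac peak, with 7.14-fold and a pileup of 9 (4.12 to 17.1). The client list held 1 HSF1 peak among 12 actin and tubulin genes, at TUBB4B with 6.68-fold, and no H3K27ac peak.

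Other chaperones gave a scale for the heights. HSPD1 and HSPE1, the mitochondrial chaperonin and its lid, share 1 promoter and 1 tallest peak, with a pileup of 52 (38.8 to 68.2) and 12.3-fold, and both also carried an H3K27ac peak. The interval of the CCT3 pileup overlapped that of this peak. Of 10 genes listed as stress-inducible cytosolic chaperones, 4 carried an HSF1 peak, against 25.4% of protein-coding genes, and none an H3K27ac peak. The 4 were HSPA8, the constitutive HSP70 of the cytosol, with 11.7-fold and a pileup of 37 (26.1 to 51.0), DNAJB1 with 8.88-fold, HSPH1 with 7.94-fold and HSP90AA1 with 6.74-fold. In pileup, CCT3 and HSPA8 did not differ beyond the counting error, nor did TCP1 and CCT6A from DNAJB1, with a pileup of 18 (10.7 to 28.4). The lists are small, and neither the difference between them nor that from the share of all protein-coding genes was tested.

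**Figure D3:**
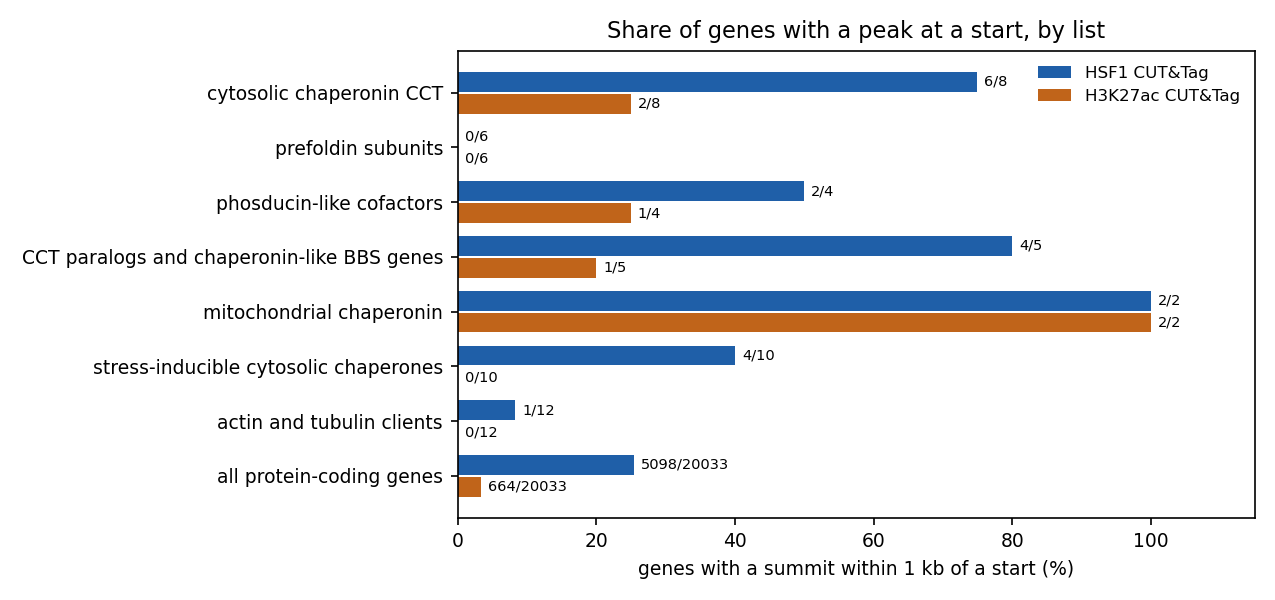
Percent of the genes of each list with a peak summit within 1 kb of a start, for the HSF1 library and the H3K27ac library, with the counts beside the bars. For HSF1, CCT has 6 of 8 genes and prefoldin 0 of 6, beside 5098 of 20033 protein-coding genes.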

How the data were processed

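HSF1 and H3K27ac CUT&Tag peak lists of untreated Huh7 cells were used, 1 library each. The authors aligned the reads, with Bowtie2 in the study's methods, and called each library by itself with MACS2, named in the submitters' processing notes. The list headers give version 2.1.4, no control, a p-value cutoff of 1e-05, a tag shift of -100 bp and an extension of 200 bp. Pileup, as deposited, is a signal that counts the extended tags lying over a summit and is not scaled to library size. Fold enrichment, as deposited, is the ratio of that count to the local background, with 1 added to each. The deposited -log10 p-value comes from the caller, and its header says that q-values were not calculated although the q-value column holds values, used only as a filter in 1 alternative. The authors gave coordinates on hg38.

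Peaks of the 22 autosomes, X and Y were assigned to GENCODE release 44 starts by summit distance, up to 1 kb, with Python 3.11.15, pandas 2.3.3 and pysam 0.24.0. The motif search covered 100 bp to either side of each summit and a window from 250 bp upstream to 50 bp downstream of canonical starts. A partner was a coding gene on the other strand with any annotated start within 1 kb upstream of the canonical start. Intervals are exact at 95% (Poisson for pileups, binomial for shares, scipy 1.17.1) and cover counting error only. No test was run, since there was 1 library per antibody. The placement, motif and interval steps were tested on simulated data and passed 6 of 6 checks.

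The members and the comparison lists were chosen with earlier results of these data known. Named genes were the 8 CCT genes, genes starting within 1 kb of their starts on the other strand, from each list at most the 4 genes with the highest HSF1 fold enrichment among those with a peak, and the 3 coding genes nearest to the tallest CCT peak. SUMF2 and MAP3K7CL were named after their values were seen. Alternatives changed the start rule, the peak threshold, the motif window and spelling, and the ranking. The 2 H3K27ac ChIP-seq lists are on hg19 and were not used here, since no hg19 genome was at hand and positions were not converted, and the RNA-seq samples were not analysed here. Of the promoter sequences, 1 is not reported here.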

Additional observations from a re-analysis of the deposited data

How the results depend on the processing

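The count of CCT genes with an HSF1 peak was 6 under all start rules and thresholds tried except that with only the outermost start, where it was 5. The background share of protein-coding genes moved to 24.3% within 500 bp, 26.3% within 2 kb, 21.5% with the outermost start, 22.8% with the canonical start, 22.0% with a -log10 q of at least 5 and 24.5% with a fold enrichment of at least 5. For H3K27ac the background moved to 2.73% (outermost), 2.89% (canonical), 1.28% (q) and 2.99% (fold enrichment), and the q filter left 1 CCT gene, CCT5, and none with both peaks. CCAAT near the summit fell to 2 CCT peaks within 50 bp, to 2 when ACCAAT or GCCAAT was required and to 1 with AGCCAAT, and was 7 within 200 bp. The background for these was 24.6%, 27.1%, 10.4% and 48.2%, and 47.6% anywhere in the peak, an alternative added after seeing the data. Heat shock elements were in 1.2% of the background peaks within 50 bp, 5.13% within 200 bp, 0.271% without a mismatch and 4.79% with 2 units, which gave 1 CCT peak and otherwise 0. The median percentile of the CCT peaks was 79.3 among peaks at protein-coding starts, 90.1 by pileup and 90.5 by -log10 p, and the median distance was 192 bp from the canonical start. The cause of these moves was not tested beyond the change of rule itself. Of 51 alternative values, 28 moved by more than the tolerance, 1.5 times for counts and distances and the 95% binomial interval for shares and percentiles. The other 23 lay within it, among them the change from 6 to 5 genes, from 5 to 7 CCAAT peaks, and of the median distance from 82.5 to 102 bp with the outermost start.

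No paired analysis was possible because each antibody has 1 library. Depth limits the smaller peaks, since CCT2 rests on 10 tags, and the short H3K27ac list cannot show that the mark is absent.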
